A study of Mus musculus with 21 samples.

Results

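The genes described here encode the machinery that moves new proteins into the endoplasmic reticulum (ER) and attaches N-linked glycans to them, measured in IgA+ plasma cells (PCs) of the mouse small intestine. A list of 33 gene names was matched by name to the deposited table, and 32 had a row of that name among its 53801 genes. The name without a row was Srp54a, whose related rows are given at the end. All 32 matched genes passed the filter of at least 10 counts over all mice and were among the 20256 genes tested. By complex, 6 belong to the signal recognition particle and its receptor, 7 to the translocon and its partners, 4 to the translocon-associated protein (TRAP) complex, 5 to signal peptidase and 10 to oligosaccharyltransferase.

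RNA was sequenced in bulk from CD138+ IgA+ PCs sorted out of the lamina propria of the small intestine, from mice of C57BL/6 background taken at Zeitgeber time (ZT) 0 or 12, the times at which lights go on and off. All mice carried floxed alleles of Arntl, the gene for the core clock protein Bmal1. Control mice had the genotype Mb1Cre-/- x Arntlfl/fl (6 at ZT0 and 6 at ZT12) and knockout mice Mb1Cre+/- x Arntlfl/fl (4 at ZT0 and 5 at ZT12). Mb1 is the B lineage gene Cd79a, so that Cre acts throughout the B cell lineage and not in PCs alone. Each library is 1 mouse. Titles gave the groups, since for 8 of 9 libraries titled as knockout the genotype entry repeats that of the control mice. Levels are given as CPM, counts scaled to library size and to edgeR's TMM factor of each library, which ran from 0.722 to 1.15. The level of Cd79a, whose locus carries Cre, ranged from 163 to 276 at ZT0 and from 177 to 249 at ZT12 in libraries titled as knockout. In those titled as control it ranged from 386 to 586 and from 404 to 584, with no overlap. Arntl itself was at 7.80 ± 0.527 CPM (SD, n = 6) in control mice at ZT0 and at 4.54 ± 0.547 (n = 6) at ZT12, and at 4.87 ± 1.08 (n = 4) and 3.89 ± 0.703 (n = 5) in knockout mice. A count over the whole gene does not separate the floxed part from the rest.

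Most secreted proteins begin with a signal sequence, which the signal recognition particle binds as it leaves the ribosome before docking on its receptor at the ER membrane. The chain then enters the Sec61 translocon, signal peptidase removes the signal sequence, and oligosaccharyltransferase transfers a preassembled glycan to asparagines of the chain. PCs depend on this route, since the immunoglobulin chains they secrete pass through it and IgA heavy chains are N-glycosylated. Oligosaccharyltransferase exists in a form built on the catalytic subunit Stt3a, which works at the translocon, and a form built on Stt3b, which can act on sites that the other form has skipped and carries Magt1 or Tusc3.

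Libraries held 14471018 to 22785835 counts, of which immunoglobulin genes took 51.5% to 63.6%. Control ZT12 replicates 2, 4 and 5 (63.6%, 59.5% and 59.1%) and knockout ZT0 replicate 3 (59.4%) stood apart from the other libraries, which lay between 51.5% and 55.7%. Relative to the mean of all libraries, the same libraries had the lowest slopes, control ZT12 replicate 5 by a small margin, for log2 CPM on log2 gene length, of -0.26, -0.15, -0.07 and -0.13 against -0.07 to 0.10 in the others. Fits without the 3 libraries of highest share left out control ZT12 replicates 2 and 4 and knockout ZT0 replicate 3, and fits without all 4 that stood apart left out control ZT12 replicate 5 as well. All 8 plasma cell markers were tested and summed to at least 281773 CPM in each library. The 11 of 12 epithelial markers that were tested summed to 52.01 to 178 CPM in control mice at ZT0, 70.3 to 865 at ZT12, 68.4 to 82.7 in knockout mice at ZT0 and 64.96 to 436 at ZT12. The 5 stromal markers summed to 38.1 to 43.3 CPM in control mice at ZT0 and 19.7 to 37.5 at ZT12, lower in every ZT12 mouse, and to 28.3 to 44.04 and 22.2 to 40.2 in knockout mice, with overlap. Of these 5, only Pecam1, which endothelial cells express, passed the test and fell in control mice, by 0.51 on the log2 scale (SE 0.14, edgeR adjusted p = 0.0494), and it held most of the sum, at 39.4 and 27.6 CPM. In control mice at ZT0 and ZT12, the sums were 14.6 to 24.8 and 12.5 to 22.8 CPM for 8 markers of T cells, 34.3 to 70.6 and 14.4 to 81.7 for 7 of myeloid cells and 21.3 to 26.00 and 12.6 to 25.1 for 7 of other B cells, with overlap in each. The part of the stromal difference in the results in control mice was not tested, and no marker was at 0 in all libraries. In bulk RNA, fewer cells of a type and less RNA per cell cannot be told apart.

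Promoter windows of 300 bases, from 250 before to 50 after the start in RefSeq (GRCm38.p6), were found for 24 of the 33 listed genes. Both strands were searched for 3 elements of the unfolded protein response, which raises many ER genes under load, and for the E-box bound by Bmal1 and its partner CLOCK. The ER stress response element ERSE (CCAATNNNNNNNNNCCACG) was in 0 of the 24 genes and in 0.137% of all 27025 genes with a window, and the UPRE core (TGACGTGG) in 0 and 0.714%. ERSE-II (ATTGGNCCACG) was in 1, Krtcap2, and in 0.0444% of all genes. The E-box (CACGTG) was in 3, Magt1, Sec62 and Ssr1, and in 8.09% of all genes. Such a match is a run of letters and not a measured binding site. The windows of Srp9, Stt3a and Stt3b are given because the results turn on these genes. Those of Krtcap2 and Ssr1 are given as examples that hold a motif, whose letters are in capitals. The windows of Magt1 and Sec62, which also hold the E-box, are not shown.
Srp9 (chr1:182124487-182124786, plus strand): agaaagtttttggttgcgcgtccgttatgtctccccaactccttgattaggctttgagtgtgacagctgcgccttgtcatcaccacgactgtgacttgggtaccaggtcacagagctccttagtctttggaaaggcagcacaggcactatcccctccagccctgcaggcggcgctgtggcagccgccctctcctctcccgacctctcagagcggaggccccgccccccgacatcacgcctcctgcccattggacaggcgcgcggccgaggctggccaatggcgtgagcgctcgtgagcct
Stt3a (chr9:36767573-36767872, minus strand): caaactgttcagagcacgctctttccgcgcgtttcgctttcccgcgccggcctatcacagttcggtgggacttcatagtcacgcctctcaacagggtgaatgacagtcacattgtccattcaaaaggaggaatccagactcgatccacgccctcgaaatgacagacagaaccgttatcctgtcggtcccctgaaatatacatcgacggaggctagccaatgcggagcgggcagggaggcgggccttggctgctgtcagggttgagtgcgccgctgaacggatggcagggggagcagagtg
Stt3b (chr9:115310419-115310718, minus strand): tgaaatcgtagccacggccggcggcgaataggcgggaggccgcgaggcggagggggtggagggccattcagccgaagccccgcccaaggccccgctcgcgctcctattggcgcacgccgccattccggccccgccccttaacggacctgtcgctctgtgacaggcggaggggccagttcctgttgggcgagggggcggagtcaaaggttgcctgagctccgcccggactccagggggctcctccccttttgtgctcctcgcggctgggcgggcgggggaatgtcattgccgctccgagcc
Krtcap2 (chr3:89246223-89246522, plus strand): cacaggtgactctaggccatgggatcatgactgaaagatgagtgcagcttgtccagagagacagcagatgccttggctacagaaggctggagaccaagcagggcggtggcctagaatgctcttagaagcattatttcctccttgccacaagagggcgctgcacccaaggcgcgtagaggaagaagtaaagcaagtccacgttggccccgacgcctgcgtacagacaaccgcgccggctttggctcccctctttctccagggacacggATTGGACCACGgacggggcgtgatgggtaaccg
Ssr1 (chr13:37994159-37994458, minus strand): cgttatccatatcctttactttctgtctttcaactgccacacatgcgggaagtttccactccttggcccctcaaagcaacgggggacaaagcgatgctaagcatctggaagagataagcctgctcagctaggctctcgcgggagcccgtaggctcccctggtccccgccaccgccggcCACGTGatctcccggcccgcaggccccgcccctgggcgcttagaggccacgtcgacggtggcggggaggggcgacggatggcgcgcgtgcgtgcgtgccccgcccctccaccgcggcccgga
None of the 4 motifs was in the windows of Srp9, Stt3a and Stt3b.

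Levels of different genes were compared as CPM per kb of the gene length in the deposited table. In control mice at ZT0 the highest was Sec11c, a catalytic subunit of signal peptidase, at 158 ± 10.7 CPM per kb (SD, n = 6), followed by Ssr4 of the TRAP complex at 121 ± 16.05 and the oligosaccharyltransferase subunit Ddost at 102 ± 2.75. Sec61b, a small subunit of the translocon (96.1 ± 10.2), and Spcs1, an accessory subunit of signal peptidase (95.2 ± 6.40), came next and differed by less than their SD. The lowest were Sec11a, the other catalytic subunit of signal peptidase, at 6.81 ± 0.750 CPM per kb, and Tusc3 at 0.970 ± 0.127. Counts of single mice ran from 25 for Tusc3 to 13158 for Sec11c.

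In control mice, most of these genes were at higher levels at ZT12 than at ZT0, and 2 passed the test. Srp9 and Ssr2 rose, 0 genes fell, and 29 of 32 had a fitted difference above 0, with a median of 0.22 on the log2 scale against 0.01 over all genes tested. With no scaling beyond library size, the median over all genes was -0.20, 16 of 32 were above 0 with a median of 0.004, 4 passed at an unadjusted p under 0.05 and 0 were called by edgeR. That fit called 2.2% of all genes, and its share of all genes at the unadjusted threshold was not counted. Over 2743 other genes at the level of the second lowest member or above, the median was -0.001. The edgeR test called 1.73% of all genes at an adjusted p under 0.05 and 2 of these 32. At an unadjusted p under 0.05, 19 genes were higher and 2 lower, where 18.1% of all genes passed and 9.19% passed and were higher. DESeq2, the tool of the study, called 15 higher and 1 lower, against 8.5% of the genes to which it gave an adjusted p. At TMM-scaled levels, all ZT12 mice were above all ZT0 mice for Rpn2 and Ddost. That is 2 of 32 genes against 0.745% of all genes, and 0 genes had all ZT12 mice below, against 0.859%. With library size alone, the times overlapped for both genes. The TMM factors were 0.722, 0.857 and 0.886 in control ZT12 replicates 2, 4 and 5 and 1.02 to 1.15 in control mice at ZT0. The count of genes called by edgeR depended on single libraries. It was 0 without control ZT0 replicate 1, 2 or 3 or control ZT12 replicate 2 or 4, 1 (Srp9) without control ZT0 replicate 4 or 5 or control ZT12 replicate 3 or 5, 11 without control ZT12 replicate 1, 8 without replicate 6, and 6 and 3 without knockout ZT0 replicates 3 and 2, which enter the fit through the shared spread. The share of all genes called changed as well. It was 0.154% to 0.503% in the fits with 0 and 0.496% to 0.901% in those with 1. In those with 11, 8, 6 and 3 it was 4.7%, 3.41%, 2.38% and 1.57%.

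**Figure D1:**
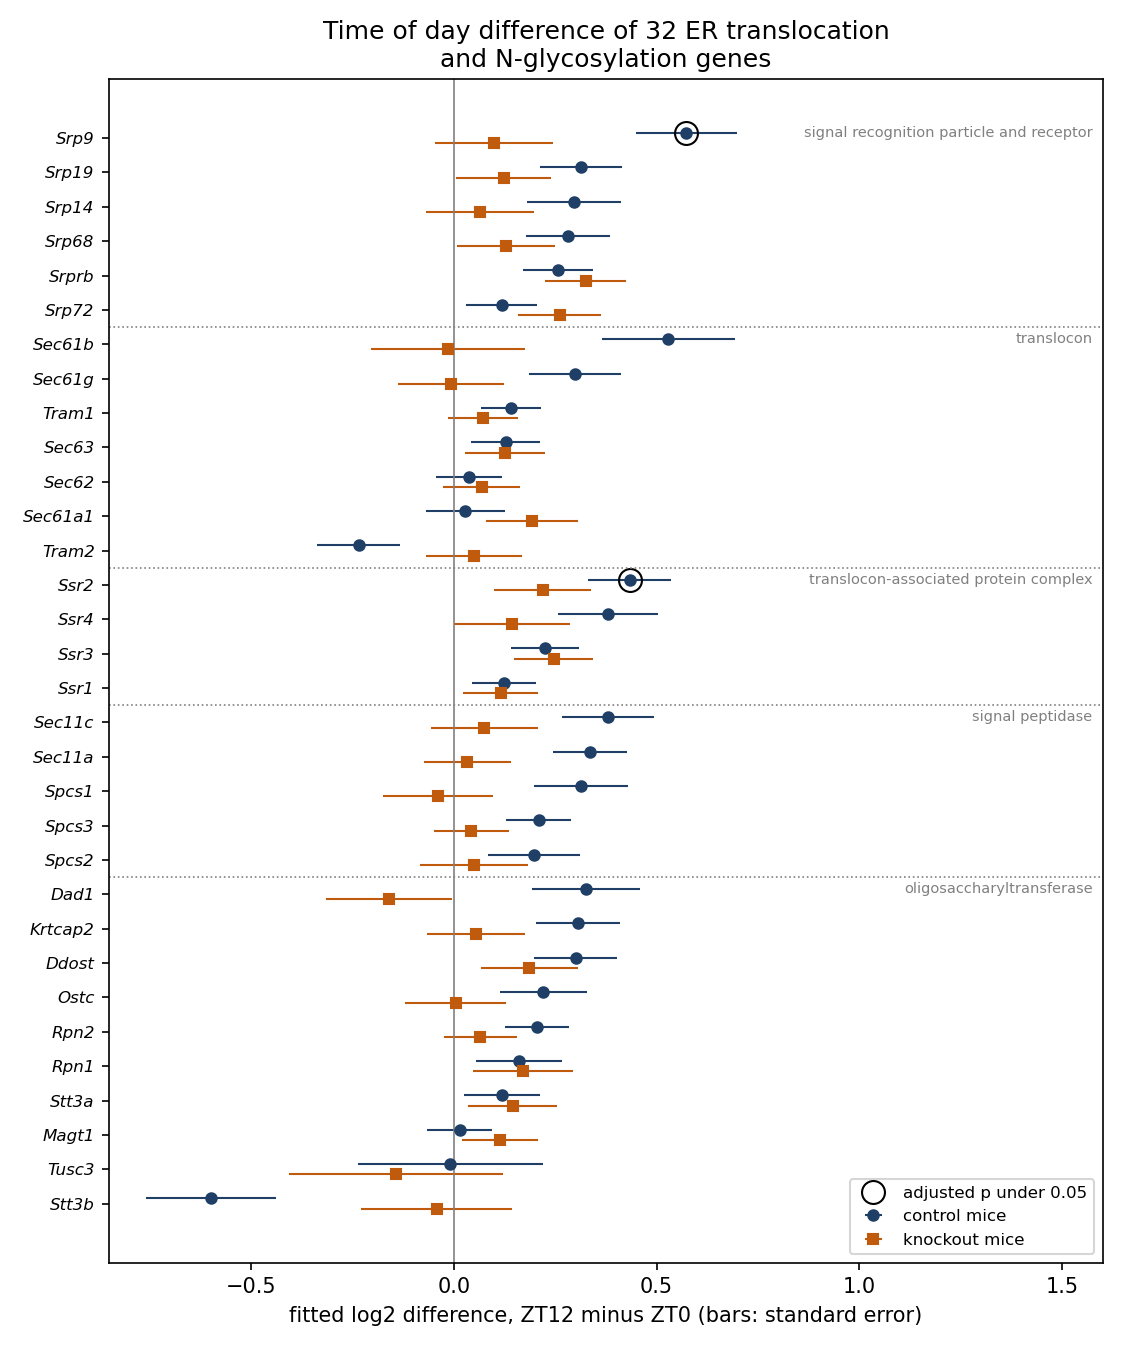
Fitted log2 difference in counts between ZT12 and ZT0 (horizontal axis) for the 32 genes, grouped by complex, in control mice (circles) and knockout mice (squares), with the standard error as bars; rings mark an adjusted p under 0.05. In control mice 29 of 32 points lie above 0 and Srp9 and Ssr2 are ringed, and in knockout mice 26 lie above 0 and none is ringed.

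The signal recognition particle and its receptor had a median difference of 0.29, and 6 of 6 genes were above 0. Srp9 (chr1:182124737-182132407, positions as deposited), which pairs with Srp14 in the part of the particle that slows the ribosome, ranged from 92.9 to 119.6 CPM (median 103) in control mice at ZT0 and from 118 to 211 CPM (median 143) at ZT12. The groups overlapped at their edges, and the 3 highest ZT12 values were in the 3 control libraries with the highest immunoglobulin share. Srp9 rose by 0.57 on the log2 scale (SE 0.12, edgeR adjusted p = 0.0244). Its call was lost with the immunoglobulin share as a covariate (0.22, edgeR adjusted p = 0.601), without the 3 libraries of highest share (0.36, edgeR adjusted p = 0.0893) or the 4 that stood apart (0.29, edgeR adjusted p = 0.308) and with no scaling beyond library size (0.33, edgeR adjusted p = 0.0720). With the epithelial marker level as a covariate it was 0.57 (edgeR adjusted p = 0.0512), and with only the control mice in the fit it was 0.57 (edgeR adjusted p = 0.0675). The pseudogene Gm13736 matched Srp9 over 253 bases at full identity and held 5353 counts, 12.2% of those of Srp9, so the division of reads between them is uncertain. Srp14 (from 42.3 ± 2.57 to 51.9 ± 11.9 CPM), Srp19, which helps assemble the particle (57.4 ± 6.34 to 71.4 ± 11.8), Srp68 (84.6 ± 9.41 to 103 ± 13.7) and the receptor subunit Srprb (51.5 ± 4.12 to 61.6 ± 6.25) had differences of 0.26 to 0.31, and Srp72, the partner of Srp68, of 0.12. None of these 5 was called by edgeR. DESeq2 called Srp19, Srp68 and Srprb higher (adjusted p = 0.0278, 0.0489 and 0.0188), against 8.5% of the genes to which it gave an adjusted p.

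The translocon and its partners had a median difference of 0.13, with 6 of 7 above 0 and none called by edgeR. DESeq2 called Sec61b and Tram1 higher (adjusted p = 0.0218 and 0.0302), against 8.5% of the genes to which it gave an adjusted p. Sec61b ranged from 98.4 to 134 CPM (median 124) at ZT0 and from 120.0 to 262 CPM (median 166) at ZT12, a difference of 0.53 on the log2 scale (SE 0.16, edgeR adjusted p = 0.0986), and the third subunit, Sec61g, was at 48.3 ± 3.56 and 59.4 ± 12.5 CPM, a difference of 0.30. Pseudogenes nearly identical to Sec61g held 27.8% as many counts. Sec61a1, which forms the channel itself, was at 445 ± 28.8 and 454 ± 55.1 CPM, a difference of 0.03 with a 95% interval of -0.16 to 0.22. Sec62 and Sec63, which help chains that enter after their synthesis, differed by 0.04 and 0.13. Tram2, a relative of the chain-associating protein Tram1, was below 0, ranging from 525 to 637 CPM (median 575) at ZT0 and from 367 to 595 CPM (median 473) at ZT12, a difference of -0.23 on the log2 scale (SE 0.10, edgeR adjusted p = 0.222), while Tram1 differed by 0.14.

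In the TRAP complex, which assists the translocon with many substrates, all 4 genes were above 0, with a median of 0.30. Ssr2 (chr3:88575876-88588419) ranged from 106 to 134 CPM (median 120.4) at ZT0 and from 133 to 198 CPM (median 164) at ZT12, so that the highest ZT0 mouse was just above the lowest ZT12 mouse. Ssr2 rose by 0.43 on the log2 scale (SE 0.10, edgeR adjusted p = 0.0356). Its call was lost with the immunoglobulin share as a covariate (0.30, edgeR adjusted p = 0.502), without the 3 libraries of highest share (0.36, edgeR adjusted p = 0.149) or the 4 that stood apart (0.32, edgeR adjusted p = 0.353), with each library's trend on gene length removed (0.28, edgeR adjusted p = 0.0746) and with library size alone (0.21, edgeR adjusted p = 0.258). It was 0.37 with the epithelial marker level as a covariate (edgeR adjusted p = 0.104) and 0.43 with only the control mice in the fit (edgeR adjusted p = 0.0676). Rtraf shared 366 bases with Ssr2 at 98.6% identity, held 13676 counts, 26.97% of those of Ssr2, and differed by 0.60 (SE 0.14, edgeR adjusted p = 0.0381), and their reads may be shared. Ssr1, Ssr3 and Ssr4 differed by 0.12, 0.22 and 0.38, and none of them was called by edgeR. DESeq2 called Ssr3 and Ssr4 higher (adjusted p = 0.0115 and 0.0289), against 8.5% of the genes to which it gave an adjusted p.

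**Figure D2:**
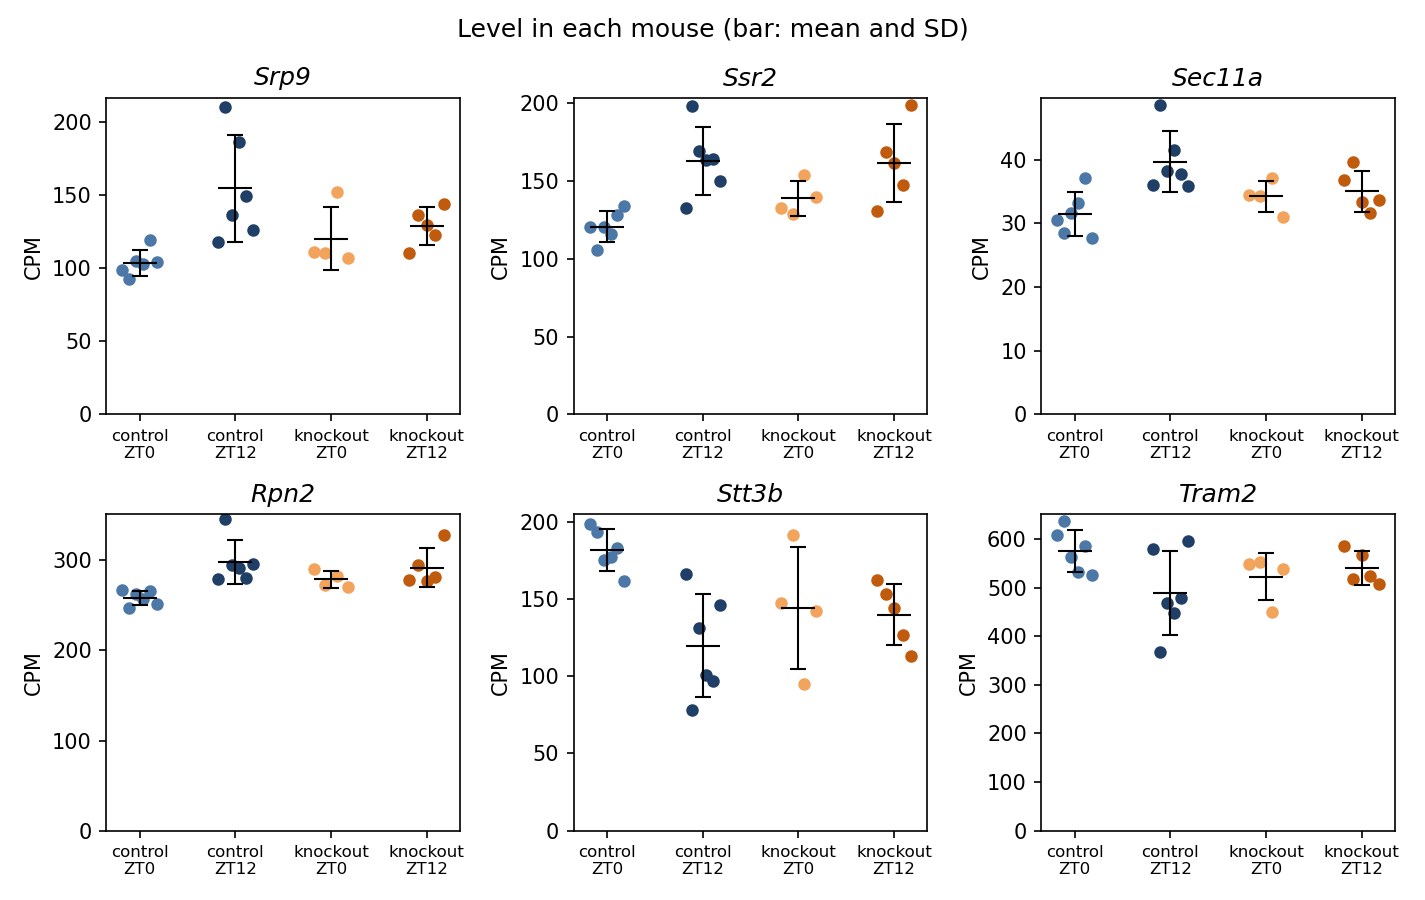
Level in each mouse, in CPM scaled by edgeR (vertical axes from 0), of Srp9, Ssr2, Sec11a, Rpn2, Stt3b and Tram2 in the 4 groups, with the mean and SD as bars. Srp9 reaches 211 CPM in a control mouse at ZT12, where Stt3b is at its lowest, 77.8 CPM.

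Signal peptidase had a median difference of 0.31, with all 5 genes above 0 and none called by edgeR. DESeq2 called Sec11a, Sec11c and Spcs3 higher (adjusted p = 0.00771, 0.0139 and 0.0142), against 8.5% of the genes to which it gave an adjusted p. Sec11a ranged from 27.7 to 37.2 CPM (median 31.1) at ZT0 and from 35.9 to 48.6 CPM (median 37.9) at ZT12, with overlap, a difference of 0.34 on the log2 scale (SE 0.09, edgeR adjusted p = 0.0574). Sec11c, its more abundant counterpart, was at 487 ± 33.1 and 635 ± 121 CPM, a difference of 0.38. The accessory subunits Spcs1, Spcs2 and Spcs3 differed by 0.31, 0.20 and 0.21. Spcs1 overlaps exons of Glt8d1 on the other strand in the annotation, and Glt8d1 held 19.6% as many counts.

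Oligosaccharyltransferase held the gene furthest below 0. Its median difference was 0.18, with 8 of 10 above 0 and none called by edgeR. DESeq2 called 3 higher and 1 lower, against 8.5% of the genes to which it gave an adjusted p. Stt3b (chr9:115242581-115310421) ranged from 162 to 199 CPM (median 180.2) at ZT0 and from 77.8 to 166 CPM (median 116) at ZT12. One ZT12 mouse overlapped the ZT0 group, and the 3 lowest ZT12 values were in the libraries with the highest immunoglobulin share. The difference was -0.60 on the log2 scale (SE 0.16, edgeR adjusted p = 0.0554), just short of the threshold, and DESeq2 called it (-0.58, adjusted p = 0.00904). It was -0.42 without the 3 libraries of highest share, -0.29 without the 4 that stood apart, -0.58 with the gene length trends removed and -0.20 with the share as a covariate. Stt3a (chr9:36729344-36767679), the other catalytic subunit, ranged from 154 to 188 CPM (median 165) and from 160.4 to 207 CPM (median 183), a difference of 0.12 with a 95% interval of -0.07 to 0.30. Among the shared subunits, Rpn2 ranged from 247 to 267 CPM (median 260.0) and from 279.7 to 346 CPM (median 293). Ddost ranged from 211 to 224 CPM (median 215) and from 225 to 347 CPM (median 255). Neither gene overlapped at these TMM-scaled levels, but both did with library size alone. Their differences of 0.21 and 0.30 were not called by edgeR (adjusted p = 0.170 and 0.133), while DESeq2 called both (adjusted p = 0.00891 and 0.0309). These genes were singled out for the lack of overlap, after their values were seen. Rpn1 and Dad1 differed by 0.16 and 0.33, and Ostc and Krtcap2, which belong to the Stt3a form, by 0.22 and 0.31. Magt1 and Tusc3, the alternative oxidoreductases of the Stt3b form, were at 104 ± 7.02 and 105 ± 6.70 CPM and at 3.33 ± 0.437 and 3.31 ± 1.08, with differences of 0.01 for Magt1 and -0.01 on the log2 scale (SE 0.23, edgeR adjusted p = 0.99) for Tusc3. Tusc3, at 25 to 88 counts a library, was the gene measured least precisely. Snrnp200, which shares 164 bases with Magt1 at 95.1% identity, held 57.2% as many counts.

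In all, 13 of the 32 genes shared at least 150 bases at 95% identity or more with another gene, which leaves the division of those reads uncertain, and the copies of the genes not singled out here held at most 4.00% as many counts.

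Because both genes of a pair were read in the same library, the ratio of related subunits does not depend on how libraries are scaled. Ratios of 4 pairs were compared by exact two-sided permutation tests over mice in 4 comparisons each, and p-values were adjusted over the 16 tests. Stt3a had 0.792 to 1.06 counts per Stt3b count in control mice at ZT0 (median 0.948) and 1.16 to 2.06 at ZT12 (median 1.54), and every ZT12 mouse was above every ZT0 mouse. The log2 ratio was higher by 0.76 (exact permutation p = 0.00216, the smallest that 6 against 6 mice can give, adjusted p = 0.0346). Per kb of gene length, Stt3a was at 0.438 ± 0.0556 of Stt3b at ZT0 and at 0.753 ± 0.160 at ZT12 (SD, n = 6 each). The deposited gene lengths were 8948 bases for Stt3a and 4221 for Stt3b. Without control ZT12 replicates 2 and 4 the difference was 0.64 (exact permutation adjusted p = 0.152). Without replicate 5 as well it was 0.51 (exact permutation p = 0.0238, the smallest that 3 against 6 mice can give, adjusted p = 0.381), and the 3 ZT12 mice left were still above every ZT0 mouse. With any 1 of the 12 control mice left out it was 0.68 to 0.85, and the adjusted p was 0.0693, at the smallest p that 5 against 6 mice can give.

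In knockout mice the same ratio was 1.25, 1.02, 1.69 and 1.26 at ZT0 and 1.03, 1.28, 1.35, 1.53 and 2.16 at ZT12. The groups overlapped, and the log2 difference was 0.15 (exact permutation adjusted p = 0.930). Between genotypes, knockout minus control, the groups overlapped at ZT0, with a difference of 0.48 (exact permutation adjusted p = 0.152) that did not pass, and the difference at ZT12 was -0.14 (exact permutation adjusted p = 0.930). Whether the time of day difference of the ratio differed between genotypes was not tested. The Tram1 to Tram2 ratio in control mice was 0.310 to 0.410 at ZT0 and 0.380 to 0.673 at ZT12, a log2 difference of 0.39 (exact permutation adjusted p = 0.152). The other pairs were lopsided in every group. Sec11a had 0.0432 ± 0.00365 of the level of Sec11c per kb in control mice at ZT0, and Tusc3 0.0439 ± 0.00610 of that of Magt1. Their log2 ratios differed between ZT12 and ZT0 in control mice by -0.03 (exact permutation adjusted p = 0.930) and -0.09 (exact permutation adjusted p = 0.930).

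**Figure D3:**
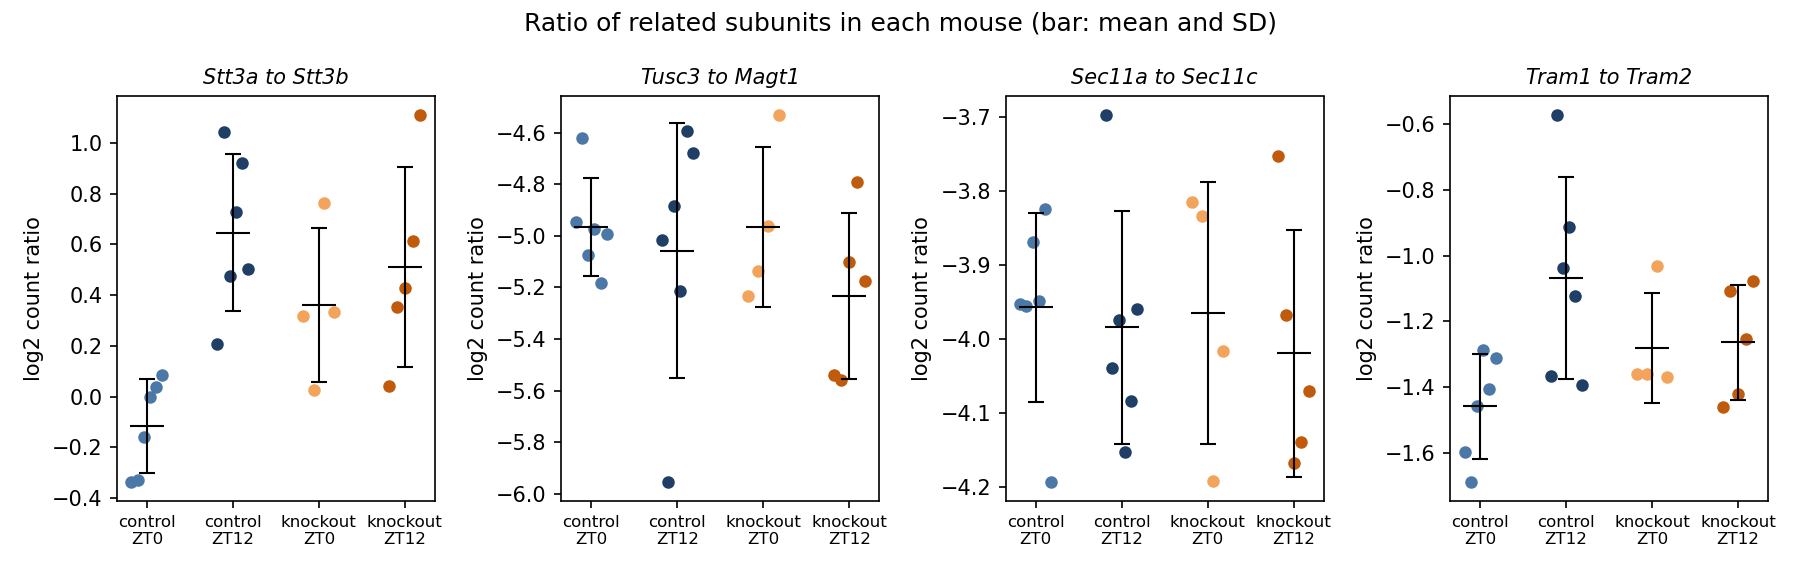
Log2 ratio of the counts of related subunits in each mouse (vertical axes, each with its own range) in the 4 groups, with the mean and SD as bars. For Stt3a to Stt3b, control mice at ZT0 average -0.12 and at ZT12 0.65 without overlap, and knockout mice average 0.36 and 0.51.

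Together, the 32 genes took 1.27% ± 0.0414 (SD, n = 6) of the counts outside immunoglobulin genes in control mice at ZT0 and 1.38% ± 0.0498 (n = 6) at ZT12, and 1.35% ± 0.0256 (n = 4) and 1.41% ± 0.0818 (n = 5) in knockout mice. As a share of all counts they took 0.601% ± 0.0276 and 0.586% ± 0.0515 in control mice, a difference smaller than their SD. Relative to its mean over all libraries, the median member was at 0.33 on the log2 scale in control ZT12 replicate 2, the library richest in immunoglobulin, at 0.13, 0.05 and 0.07 in the other libraries that stood apart, and at -0.26 to 0.14 in the rest. With the immunoglobulin share as a covariate, the median difference of the genes in control mice was 0.10 with 0 called, without the 3 libraries of highest share 0.16 with 0 called, and without the 4 that stood apart 0.13 with 0 called and 11 at an unadjusted p under 0.05. The covariate left 0 genes of the whole table called, and the fits without the 3 and the 4 libraries called 0.288% and 0.0611% of all genes. The share of all genes at an unadjusted p under 0.05 was not counted in these fits. Immunoglobulin share and time of day were not independent in control mice, where 3 of the 6 ZT12 libraries and none at ZT0 had a high share.

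**Figure D4:**
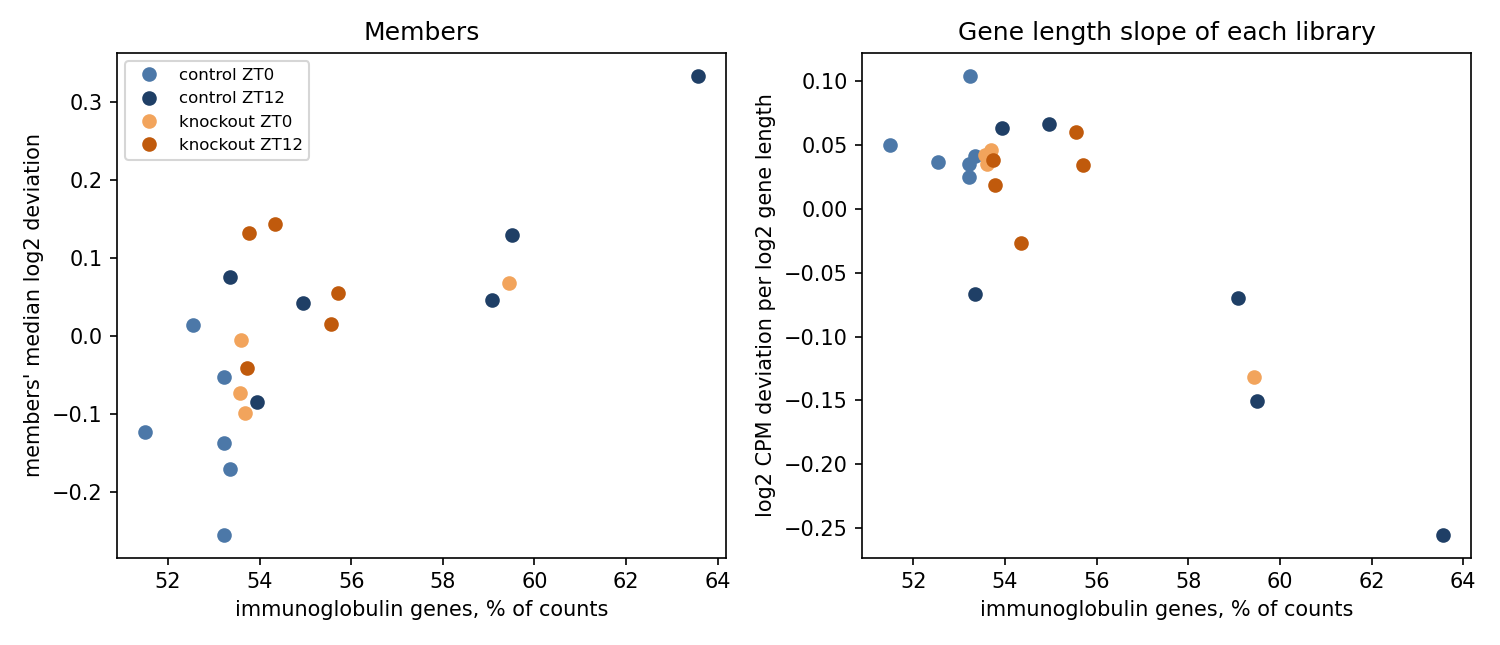
Each point is a library, coloured by group, with its immunoglobulin share of counts on the horizontal axes and, on the vertical axes, the median log2 deviation of the 32 genes from their mean over libraries (left) and the slope of log2 CPM deviation on log2 gene length (right). The 4 libraries with a share above 59% lie at 0.05 to 0.33 on the left and at -0.26 to -0.07 on the right.

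Differences also varied with gene length. Across the 32 genes, Spearman's rho of the log2 difference with gene length was -0.57 in control mice and 0.31 in knockout mice, and over 6916 genes of the table it was -0.43 and 0.16. Genes are not independent replicates, and these values are descriptions. Short genes such as Sec61b (1271 bases) and Ssr2 (1864 bases) were at the upper end in control mice, while Srp9 (5541 bases) lay above and Stt3b (4221 bases) below genes of like length. With the length trends removed, Srp9 was at 0.65 (edgeR adjusted p = 0.0227), the median of the genes was 0.21, and 2 genes, Srp9 and Sec11a, were called, against 1.56% of all genes.

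**Figure D5:**
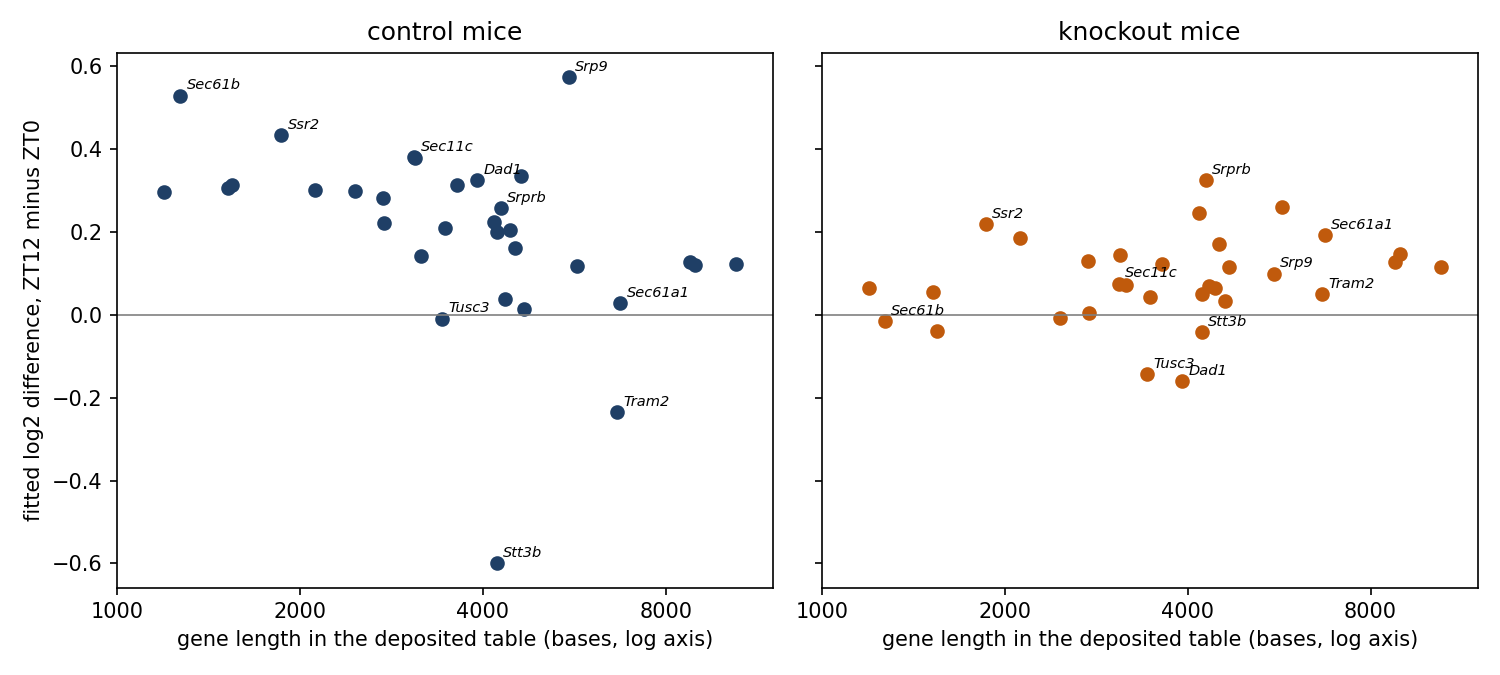
Fitted log2 difference between ZT12 and ZT0 (vertical axis) against gene length in the deposited table (horizontal log axis) for the 32 genes in control mice (left) and knockout mice (right), with some genes named. In control mice the points fall with length (rho -0.57), with Srp9 at 0.57 and Stt3b at -0.60 off the trend, and in knockout mice rho is 0.31.

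In knockout mice, 0 of 32 genes were called between ZT12 and ZT0 by edgeR and 0 by DESeq2, where the tools called 0% and 0.319% of all genes. At an unadjusted p under 0.05, 3 genes were higher and 0 lower, against 8.01% of all genes. The median difference was 0.07, with 26 of 32 above 0. Over the 2743 other genes at the level of the second lowest member or above, the median was 0.06, with 63.9% above 0. By complex, the medians ran from 0.04 to 0.18. All ZT12 mice were above all ZT0 mice for 2 of 32 genes, Srprb and Srp72, against 1.22% of all genes, and below them for 0, against 1.41%. Srprb, the receptor subunit, had 45.2, 56.2, 50.03 and 49.5 CPM at ZT0, then 62.9, 67.05, 59.8, 57.3 and 67.6 CPM at ZT12. Its times did not overlap at these TMM-scaled levels, but did with library size alone. The difference of Srprb was 0.33 on the log2 scale (SE 0.10, edgeR adjusted p = 0.487). Srp72 had 128, 133, 107 and 124 CPM and 136, 144, 149, 152 and 156 CPM, without overlap under either scaling. The difference of Srp72 was 0.26 on the log2 scale (SE 0.10, edgeR adjusted p = 0.601). Ssr3 had 379, 436, 345 and 358 CPM and 421, 479.6, 437, 453 and 462 CPM, with overlap, a difference of 0.25 on the log2 scale (SE 0.10, edgeR adjusted p = 0.608). These were the smallest p-values on the upper side. Below 0, Dad1, a small subunit of oligosaccharyltransferase, differed by -0.16 on the log2 scale (SE 0.16, edgeR adjusted p = 0.824) and by -0.255 without knockout ZT0 replicate 4 and -0.032 without knockout ZT0 replicate 3, Tusc3 by -0.14 on the log2 scale (SE 0.26, edgeR adjusted p = 0.927) and Spcs1 by -0.04 on the log2 scale (SE 0.14, edgeR adjusted p = 0.965).

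For the genes with the smallest p-values in control mice, the times overlapped in knockout mice. Srp9 had 111, 110.2, 152 and 107 CPM at ZT0, then 110.1, 136, 129.9, 123 and 144 CPM at ZT12, a difference of 0.10 on the log2 scale (SE 0.14, edgeR adjusted p = 0.899) that became 0.033 without knockout ZT0 replicate 4 and 0.234 without knockout ZT0 replicate 3. The ZT0 value furthest from the others was that of replicate 3, the knockout library rich in immunoglobulin. Ssr2 had 133, 129, 154 and 139.7 CPM and 131, 169, 162, 148 and 199 CPM, a difference of 0.22 on the log2 scale (SE 0.12, edgeR adjusted p = 0.655). Stt3b had 148, 192, 94.98 and 142 CPM and 162, 154, 144, 127 and 113 CPM, a difference of -0.04 with a 95% interval of -0.41 to 0.32, and replicate 3 was again the lowest at ZT0.

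Whether the time of day difference itself differed between genotypes was tested by the interaction, knockout minus control. None of the 32 genes was called by edgeR or DESeq2, which called 0% and 0.0279% of all genes. At an unadjusted p under 0.05, 1 gene was higher and 4 were lower, against 10.8% of all genes. The median was -0.14, against 0.05 over other genes at the level of the second lowest member or above. The gene on the upper side was Stt3b, at 0.56 (SE 0.25, edgeR adjusted p = 0.451). Those on the lower side were Srp9 at -0.47 (SE 0.19, edgeR adjusted p = 0.442), Dad1 at -0.49 (SE 0.20, edgeR adjusted p = 0.442), Sec61b at -0.54 (SE 0.25, edgeR adjusted p = 0.452) and Sec11a at -0.30 (SE 0.14, edgeR adjusted p = 0.453). Ssr2 was at -0.21 (SE 0.16, edgeR adjusted p = 0.618), Tram2 at 0.28 (SE 0.16, edgeR adjusted p = 0.497) and Sec61a1 at 0.16 (SE 0.15, edgeR adjusted p = 0.696). The unadjusted 95% intervals of Srp9 (-0.85 to -0.10) and Stt3b (0.08 to 1.04) lay on 1 side of 0, and neither gene passed after adjustment over all genes. By complex, the 5 signal peptidase genes were all below 0 (median -0.30). Without the 3 libraries of highest immunoglobulin share the median over the 32 genes was -0.02, with Srp9 at -0.13 and Stt3b at 0.22. Without the 4 that stood apart the median was -0.01, with Srp9 at -0.06 and Stt3b at 0.09.

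Between genotypes at 1 time, no gene of the 32 was called. At ZT0, edgeR called 0.00987% and DESeq2 0.0247% of all genes, 0 of the 32 passed at an unadjusted p under 0.05 against 4.9% of all genes, and the median difference, knockout minus control, was 0.11. Without knockout ZT0 replicate 3 that median was 0.055. At ZT12, edgeR called 0.0148% and DESeq2 0.0574% of all genes, and 1 of the 32 passed unadjusted against 8.83%. That gene was Dad1, at 99.4 ± 26.2 CPM in control and 79.3 ± 8.65 in knockout mice, a difference of -0.32 on the log2 scale (SE 0.14, edgeR adjusted p = 0.562). The median at ZT12 was -0.03. Each genotype comparison shares mice with each time of day comparison, so that their values are not independent.

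Neighbouring steps of the pathway were described by 3 further lists. Of 33 other genes of targeting and membrane insertion, 1 was called higher and 0 lower in control mice, with a median of 0.13, and 2 were higher and 2 lower at an unadjusted p under 0.05, where 1.73% of all genes were called and 18.1% passed unadjusted. The called gene was Rrbp1, a ribosome-binding protein of the rough ER, which rose from 374 to 485 CPM, by 0.37 (SE 0.08, edgeR adjusted p = 0.0233). Its difference in knockout mice was 0.27 (SE 0.09, edgeR adjusted p = 0.556). Of 30 genes that build the dolichol-linked glycan or complete oligosaccharyltransferase, 0 were called, with a median of 0.05, 5 higher and 2 lower at an unadjusted p under 0.05. Of 14 genes of early glycan trimming and the calnexin cycle, 0 were called, with a median of 0.04, 2 higher and 0 lower unadjusted. In knockout mice none of the 3 lists had a called gene, and the medians were 0.05, 0.02 and 0.10.

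Srp54 encodes the subunit that binds the signal sequence, and the mouse has near-identical copies side by side on chromosome 12. Of the deposited rows, 2 carried the name Srp54. The row that GENCODE M21 names Srp54a (chr12:55080262-55115367) was at 10.97 ± 1.97 CPM in control mice at ZT0 and 8.86 ± 2.39 at ZT12, a difference of -0.31 (SE 0.18, edgeR adjusted p = 0.369). The row that it names Srp54b (chr12:55155104-55189573) was at 4.18 ± 0.854 and 9.28 ± 2.70 CPM, a difference of 1.15 (SE 0.34, edgeR adjusted p = 0.0915). The row that the table names Srp54b and GENCODE M21 Srp54c (chr12:55230168-55263836) was at 14.6 ± 0.771 and 16.4 ± 2.33 CPM, a difference of 0.17 (SE 0.10, edgeR adjusted p = 0.364). In knockout mice the differences, by GENCODE name, were 0.05 for Srp54a, 0.81 for Srp54b (SE 0.40, edgeR adjusted p = 0.615) and 0.15 for Srp54c. None of the 3 rows was called, and how reads were divided between the copies is not known here.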

How the data were processed

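The deposited table held raw read counts per gene for 21 libraries, made by the authors from poly-A-selected RNA (NEB Next Ultra kit, random hexamer priming, paired-end sequencing on an Illumina NovaSeq) of sorted PCs of 1 mouse each. The aligner, the counter, its use of strand and the genome build were not given in the sources used here. The gene positions of 52142 of 53706 genes found by ID in GENCODE M21 (GRCm38) were the same as there, and gene length was used as deposited. Genes with a total under 10 counts were removed, as in the study. Counts were fitted with edgeR 4.0.16 (quasi-likelihood test, robust, TMM scaling, means of the 4 groups, R 4.3.3), and p-values were adjusted over all genes by Benjamini and Hochberg, with a threshold of 0.05. DESeq2 1.42.0, the study's tool, was an alternative, as was the threshold of 0.01 in the study's general methods, which for this comparison of PCs also used 0.05. Ratios of related subunits used counts plus 0.5 and exact two-sided permutation tests over mice. Full statistics were given for genes called in any comparison and for the 3 smallest p-values in each direction of the control, knockout and interaction comparisons. Alternatives covered scaling, filters, samples, covariates, gene length trends, a replicate block and fits without each of the libraries. All 46 pairs of libraries within a group differed beyond counting noise. The fits were also run on simulated counts with known changes in some genes. Those counts held no differences between libraries in immunoglobulin share or gene length trend. They do not show how reliable calls are that depend on such differences. The gene list, the neighbouring lists and the tests were chosen with earlier results of these data known. Total counts of 14471018 to 22785835 gave at least 483 counts a library for each gene but Tusc3.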

Additional observations from a re-analysis of the deposited data

Results flagged for a closer look

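In 7 of 68 groups of 4 to 6 libraries tested for 13 genes and 4 ratios, 1 library lay far from the others of its group. Chance gives such a gap in about 1 in 20 groups. Knockout ZT0 replicate 3, which had 59.4% immunoglobulin counts and a gene length slope of -0.13, accounted for 4 of them. Its Sec61b level was 217 CPM, where the nearest library had 131. Its Srp9 level was 152 CPM against 111, its Tram2 level 450.1 against 537, and its log2 ratio of Tram1 to Tram2 -1.03 against -1.36. In control mice at ZT0, Sec61a1 was at 499 CPM in replicate 5 against 446 in the nearest library. Spcs1 was at 128 CPM in replicate 2 against 148, and the log2 ratio of Sec11a to Sec11c was -4.19 in replicate 6 against -3.96. For none of these genes was there a difference in the time of day effect between genotypes that passed the test.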

How the results depend on the processing

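In control mice the genes called numbered 16 by DESeq2, 3 with its size factors in edgeR and 4 under the filterByExpr filter, and 0 at the threshold of 0.01, with library size only (0), with control mice alone in the fit (0), with the immunoglobulin share (0) or epithelial marker level (0) as a covariate and without the 3 (0) or 4 (0) libraries richest in immunoglobulin (named in the report, alternatives chosen after seeing the data), against 2 in the report. Leaving out each library gave 0 to 11, as detailed in the report. Over all genes the calls numbered 350 in the report (1.73%), 1052 by DESeq2 (8.5%), 38 with control mice alone (0.203%) and 0 with the immunoglobulin covariate. They made up 1.63% with DESeq2's size factors, 3.35% under filterByExpr and 2.2% with library size only. With the epithelial covariate they made up 0.513%, and without the 3 or 4 libraries 0.288% and 0.0611%. The share of all genes at the threshold of 0.01 was not counted. In knockout mice, the interaction and both genotype comparisons, 0 of these genes were called in each alternative run, and fits on a comparison's own groups give no interaction. With library size only, the median over the genes was 0.0040 in control mice, where the median of all genes was -0.20, and 0.049 in the interaction. With the immunoglobulin covariate the medians were 0.10 and -0.0044, and the interaction median was -0.024 without the 3 libraries and -0.011 without the 4. The share of all counts in control mice had a log2 difference of -0.035. The ratio without the 3 libraries was 0.64 for Stt3a to Stt3b, 0.17 for Tusc3 to Magt1 and 0.028 for Sec11a to Sec11c in control mice, and 0.069 for the last between genotypes at ZT0. Without the 4 these were 0.51, 0.10, 0.080 and 0.069, and between genotypes at ZT12 the ratio was 0.11 for Stt3a to Stt3b and 0.0020 for Tram1 to Tram2. The cause of these changes was not tested.

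Some differences of genes that were not called changed sign. In control mice Tusc3 was at 0.011 by DESeq2, 0.012 with its size factors, 0.0031 under filterByExpr, 0.26 with the immunoglobulin covariate and 0.24 without the 3 libraries, Dad1 at -0.059 with that covariate, Srp72 at -0.077 and Sec61a1 at -0.16 with library size only, and Sec61a1 at -0.0027 with the epithelial covariate. In knockout mice Stt3b was at 0.00042 with the replicate block and 0.025 with the epithelial covariate, Sec61b at 0.0084 with the block, 0.066 with the immunoglobulin covariate, 0.049 with length trends removed and 0.23 without the 3 libraries, Spcs1 at 0.00057 and 0.069 with that covariate and without the 3 libraries, and Tram2 at -0.018 without them. In the interaction Tusc3 was at 0.0087 with library size only, Ssr3 at -0.0030 by DESeq2, -0.0031 with its size factors and -0.015 with length trends removed, Srp72 at -0.0084, Sec61b at 0.0082 and Sec61a1 at -0.060 with the immunoglobulin covariate, and Sec61a1 at -0.025 without the 3 libraries. Without the 4, Tusc3 was at 0.16 and Dad1 at -0.022 in control mice, Tram2 at -0.020, Spcs1 at 0.067 and Sec61b at 0.23 in knockout mice, and Ssr3 at -0.023, Sec61a1 at -0.055 and Sec61b at 0.023 in the interaction.

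Leaving out 1 library at a time gave, in control mice, -0.11 to 0.14 for Tusc3, -0.0056 to 0.087 for Sec61a1 and log2 ratios of 0.68 to 0.85 for Stt3a to Stt3b, -0.085 to 0.0065 for Sec11a to Sec11c and -0.19 to 0.087 for Tusc3 to Magt1. In knockout mice it gave -0.025 to 0.074 for Sec11a, -0.11 to 0.23 for Sec61b, -0.12 to 0.071 for Spcs1, -0.20 to 0.11 for Stt3b, -0.016 to 0.069 for Tram2, -0.25 to 0.0066 for Tusc3, 0.033 to 0.23 for Srp9, -0.26 to -0.032 for Dad1 and ratios of -0.00059 to 0.28 for Stt3a to Stt3b and -0.030 to 0.10 for Tram1 to Tram2. In the interaction it gave -0.025 to 0.078 for Ssr3 and -0.29 to 0.015 for Tusc3. Between genotypes it gave -0.057 to 0.069 at ZT0 and -0.10 to 0.022 at ZT12 for Sec11a to Sec11c, and -0.15 to 0.088 at ZT0 for Tusc3 to Magt1.

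Of 28 correlations between same-numbered libraries of different groups, 7 were over 0.1 (range -0.33 to 0.34). Between control and knockout mice at ZT12 they were 0.34, 0.30 and 0.33 for replicates 1, 2 and 5, and -0.20 and -0.24 for replicates 3 and 4. Such correlations cannot settle whether replicate numbers pair the mice or mark shared handling, and the main fits treated the mice as unpaired. With the replicate block 2 of these genes and 183 of all genes were called in control mice, and the paired form of the ratio test was not run. Depth limited Tusc3 most, at 25 to 88 counts a library.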
